A study of Mus musculus with 35 samples.

Results

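The genes described here are 8 tubulin genes, 5 that encode β-tubulin isotypes (*Tubb3*, *Tubb2a*, *Tubb2b*, *Tubb5* and *Tubb6*) and 3 that encode α-tubulin isotypes (*Tuba1a*, *Tuba1b* and *Tuba1c*). They were taken by gene symbol from the 53465 genes of a table of RNA-seq read counts and followed through all 35 libraries. The rule was that a symbol with several identifiers would have its identifier chosen by the most counts, but each symbol stood for 1 identifier, so no measured value entered. The 8 genes were nonetheless proposed with earlier results of these libraries in view, and the P values below are therefore not independent evidence about them.

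The libraries were made from mouse pancreatic ductal adenocarcinoma (PDAC) cells, KC-shSmad4, sorted as mKate2+ cells from primary tumors in the pancreas (orthotopic injection), liver metastases (intrasplenic injection) or lung metastases (tail-vein injection). The study asked how restoring *Smad4*, a mediator of TGFβ signaling, acts in each organ. The injected cells of all groups carried *Ptf1a*-Cre, which acts in the pancreatic lineage, *Rosa26* LSL-rtTA3-IRES-mKate2, a doxycycline (Dox)-inducible, GFP-linked shRNA against *Smad4* in *Col1a1*, a mixed C57BL/6J;129 background and a luciferase reporter. All hosts were female *Foxn1*nu mice, which lack T cells, injected at an age of 6 to 8 weeks on Dox chow. Smad4 off stands for hosts kept on Dox and Smad4 on for hosts whose Dox was withdrawn 4 (pancreas), 5 (liver) or 6 (lungs) weeks after injection, and cells were collected 7 or 14 days later. On day 7 there were 3 pancreas, 2 liver and 4 lung libraries labelled Smad4 off, and 2, 3 and 2 labelled Smad4 on. On day 14 there were 2 pancreas, 3 liver and 4 lung libraries labelled Smad4 off, and 3, 3 and 4 labelled Smad4 on. A mouse number in the labels names each library, but the labels do not say that a number shared by groups stands for a shared animal or batch, nor how many animals a library pooled.

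Microtubules are hollow polymers of α-tubulin and β-tubulin heterodimers that carry transport, shape the cell and build the mitotic spindle. Mammals encode several isotypes of each subunit, which differ mainly in the acidic tail at the carboxyl terminus, the surface that modifying enzymes and motor proteins read. *Tubb3* encodes class III β-tubulin, best known as a marker of neurons and also found in carcinomas, including pancreatic ones, where it has been studied for resistance to drugs that bind microtubules. *Tubb5* encodes the main β-tubulin of most dividing cells, *Tubb2a* and *Tubb2b* encode a closely related pair that is abundant in the brain, and *Tubb6* encodes a divergent class V isotype that is widespread outside the nervous system. *Tuba1a* encodes the main α-tubulin of the developing brain, and *Tuba1b* and *Tuba1c* encode α-tubulins found in most tissues.

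Transcript sequences, coding and untranslated, decide which isotypes short reads can tell apart. The coding ends of 2 pairs are shown, 5′ to 3′ on the coding strand, from the GENCODE M21 annotation of GRCm38. Each run is the last 60 coding bases including the stop codon, the stretch that encodes the variable tail. In the *Tubb2a* and *Tubb2b* pair capitals mark the bases at which the partners differ, and in *Tubb3* and *Tubb5* they mark the stop codon.
Tubb2a, chr13:34074468-34074527, minus strand: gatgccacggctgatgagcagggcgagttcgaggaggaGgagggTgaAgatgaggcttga
Tubb2b, chr13:34127471-34127530, minus strand: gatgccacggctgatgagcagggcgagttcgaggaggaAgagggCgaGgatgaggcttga
Tubb3, chr8:123421623-123421682, plus strand: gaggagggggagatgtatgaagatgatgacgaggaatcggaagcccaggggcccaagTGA
Tubb5, chr17:35834982-35835041, minus strand: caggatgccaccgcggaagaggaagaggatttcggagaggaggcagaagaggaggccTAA
*Tubb2a* and *Tubb2b* differ at 3 bases of the stretch, whereas the longest run that the whole transcripts of *Tubb3* and *Tubb5* share is 26 bases.

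Over the whole coding sequence, *Tuba1a* and *Tuba1b* differed at 23 of 1356 bases (98.3% identical) and *Tubb2a* and *Tubb2b* at 47 of 1338 (96.5% identical). Windows of 75 bases, the length of the reads, were then taken over whole transcripts, untranslated parts included. The share that also occurred in transcripts of another gene of the table was 0% for *Tubb3*, *Tubb5* and *Tubb6*. It was 43.2% for *Tubb2a*, 32.2% for *Tubb2b*, 56.3% for *Tuba1a*, 69.6% for *Tuba1b* and 56.7% for *Tuba1c*. *Tubb3*, *Tubb5* and *Tubb6* thus shared no exact stretch of 75 bases with annotated transcripts of other genes of the table. Shorter reads, mismatches and the rest of the genome were not checked. The counts of the other 5 are uncertain in how reads were divided among near-identical genes, because the handling of reads with several matches is not given in the sources used here.

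In the deposited coordinates of GRCm38, *Tubb3* (ENSMUSG00000062380) spans chr8:123411424-123422015 on the plus strand. *Tubb2a* (ENSMUSG00000058672) and *Tubb2b* (ENSMUSG00000045136) are neighbors on the minus strand of chromosome 13, at chr13:34074274-34078007 and chr13:34126748-34130466. *Tuba1a* (ENSMUSG00000072235, chr15:98949841-98953551, minus), *Tuba1b* (ENSMUSG00000023004, chr15:98931425-98934565, minus) and *Tuba1c* (ENSMUSG00000043091, chr15:99029891-99038105, plus) lie together on chromosome 15. *Tubb5* (ENSMUSG00000001525, minus) and *Tubb6* (ENSMUSG00000001473, plus) lie at chr17:35833921-35838306 and chr18:67390717-67402748.

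Totals per library were 11885461 to 43571007 counts (median 19415320), which puts 3 counts at 0.0689 to 0.252 CPM, counts scaled to a common library total, a floor that covers counting error only. *Smad4* mRNA went against the labels: the 18 libraries labelled Smad4 off held 77.9 to 132 CPM and the 17 labelled Smad4 on held 14.4 to 23.2 CPM. The labels are kept below as deposited, and every direction is that of libraries labelled Smad4 on against libraries labelled Smad4 off. Counts of the mitochondrial gene *mt-Co3* were present in 10 liver and lung libraries and 0 in the other 25, and 723 genes were higher and 215 lower in all of these 10 than in all of the other 15 liver and lung libraries. One of the 10, the library labelled Smad4 off of mouse 2 in the liver on day 7, was the sole paired-end library, and it stood apart in the summed level of 7 acinar genes (306 CPM against 4.91 to 16.9 in the other 10 liver libraries), 10 fibroblast genes (32618 against 340 to 4497) and 8 carcinoma genes (3271 against 12554 to 18475). The ranges of the 10 pancreas libraries were 686 to 2982, 9738 to 26925 and 2601 to 8285 CPM. It is included below unless stated, and the main results of the liver on day 7 are also given without it.

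Per transcript length, *Tubb5* had the highest level of the 8 genes, with a median of 323 RPKM (CPM per kilobase of the deposited transcript length) over 35 libraries, followed by *Tuba1a* at 135 and *Tubb6* at 89.1 RPKM. *Tubb2b* (59.9), *Tuba1c* (52.3), *Tuba1b* (44.9) and *Tubb2a* (43.9) were closer together, and *Tubb3* was lowest at 12.6 RPKM. *Tubb5* held 40.1 to 65.0% of the counts of the 8 genes in a library (median 56.9%) and *Tubb3* 0.0712 to 4.31% (median 1.25%). *Tubb3* was thus a minor isotype by mRNA in every library, but it varied most: its CPM spanned 154-fold over the libraries, from 24 counts in the lowest.

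**Figure D1:**
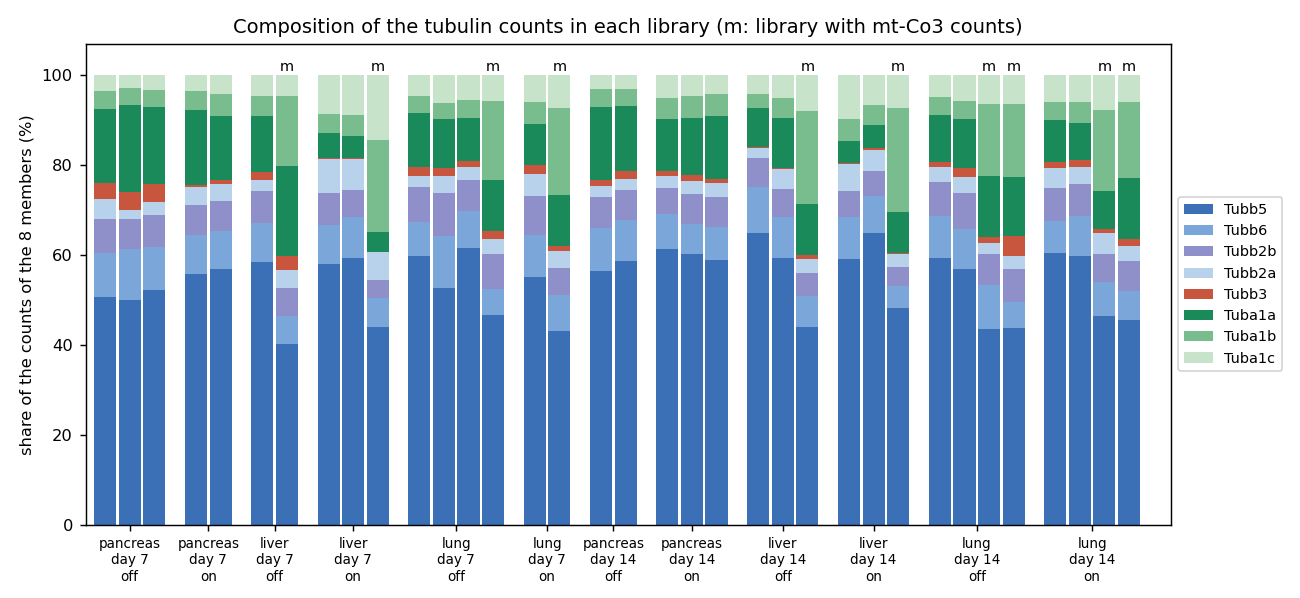
Share of the counts of the 8 tubulin genes taken by each gene (stacked bars, percent of the summed counts) in each of the 35 libraries, ordered by organ, day and label, with m marking the 10 libraries with *mt-Co3* counts. *Tubb5* is the widest band throughout, at 40.1 to 65.0%, and the α-tubulin bands are wider in the marked libraries.

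The levels of *Tubb3* differed by organ, day and label. In the pancreas on day 7 *Tubb3* stood at 83.2, 114 and 109 CPM in libraries labelled Smad4 off and at 9.97 and 12.9 CPM in those labelled Smad4 on. In the liver on day 7 it stood at 47.2 and 96.3 CPM, the second being the paired-end library, against 4.45, 2.44 and 0.859 CPM. In both organs every library labelled Smad4 on lay far under every library labelled Smad4 off. In the lungs on day 7 the values were 34.2, 31.0, 23.4 and 45.8 CPM against 31.4 and 29.0 CPM, so the labels overlapped entirely.

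On day 14 *Tubb3* stood at 34.9 and 39.7 CPM against 18.6, 21.1 and 15.9 CPM in the pancreas, again without overlap but closer together. In the liver it was 3.40, 5.42 and 23.5 CPM against 1.59, 6.30 and 5.25 CPM, and in the lungs 23.2, 36.4, 43.4 and 133 CPM against 19.6, 22.8, 16.9 and 41.9 CPM. The labels overlapped in both metastatic sites, where the highest library labelled Smad4 off (133 CPM in the lungs and 23.5 CPM in the liver) was one with *mt-Co3* counts. Fewer cells of a type and less RNA per cell cannot be told apart in such bulk libraries.

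**Figure D2:**
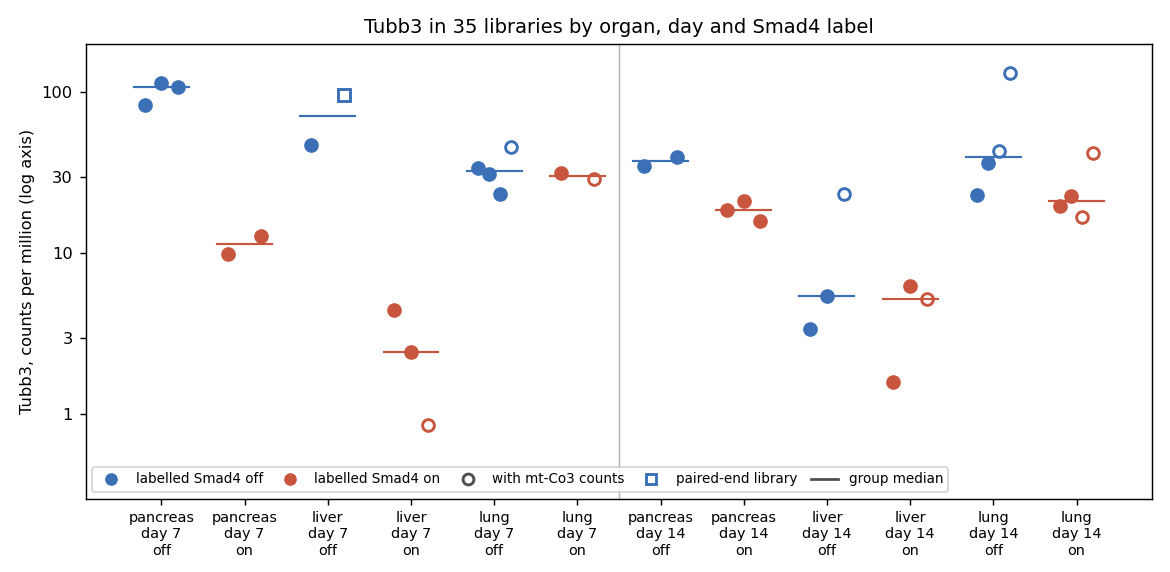
*Tubb3* in each of the 35 libraries (CPM, log axis) by organ and day, with libraries labelled Smad4 off in blue and Smad4 on in red, lines for group medians, open symbols for libraries with *mt-Co3* counts and a square for the paired-end library. The labels are separated in the pancreas on both days and in the liver on day 7, where the values are 47.2 and 96.3 against 0.859 to 4.45 CPM, and overlap in the lungs.

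Ordered by median, *Tubb3* was highest in libraries labelled Smad4 off of the pancreas on day 7 (109 CPM) and of the liver on day 7 (71.8, or 47.2 CPM without the paired-end library), followed by libraries labelled Smad4 off of the lungs on day 14 (39.9), the pancreas on day 14 (37.3) and the lungs on day 7 (32.6). Libraries labelled Smad4 on followed in the lungs on day 7 (30.2) and day 14 (21.2) and in the pancreas on day 14 (18.6) and day 7 (11.4). The lowest 3 groups were the liver on day 14, labelled off (5.42) and on (5.25), and the liver on day 7, labelled on (2.44). Each group overlapped in range with the next in this order, except that the pancreas on day 14 labelled on did not overlap with the pancreas on day 7 labelled on. Liver metastases thus held both the second highest and the lowest median.

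In the pancreas on day 7, *Tubb3* and *Tubb6* fell, that is, they were lower in libraries labelled Smad4 on by over 2-fold at a Benjamini–Hochberg-adjusted P value under 0.05 in edgeR's quasi-likelihood test. These 2 of 8 genes compare with 0.374% of the 14439 genes tested that fell. *Tubb3* had a log2 fold change of −3.18 ± 0.21 (SE, adjusted P = 0.00366) and *Tubb6* of −1.03 ± 0.17 (adjusted P = 0.0401). The *Tubb6* values were 229, 319 and 258 CPM against 132 and 137 CPM, which do not overlap.

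The other genes were also lower in the libraries labelled Smad4 on of the pancreas on day 7, by less. *Tubb2b* (183, 190 and 194 against 102 and 109 CPM) had a log2 fold change of −0.87 ± 0.10 (adjusted P = 0.0190), short of 2-fold. *Tuba1a* (391, 547 and 469 against 254 and 235 CPM) had one of −0.97 ± 0.18 (adjusted P = 0.0501) and *Tubb5* (1207, 1412 and 1433 against 853 and 931 CPM) of −0.62 ± 0.15 (adjusted P = 0.0766). Log2 fold changes were −0.52 ± 0.12 for *Tuba1b*, −0.51 ± 0.13 for *Tuba1c* and −0.42 ± 0.22 for *Tubb2a*, none of which passed. The labels did not overlap for 7 of the 8 genes, *Tubb2a* being the exception, compared with 20% of all genes that lay lower without overlap. The median log2 fold change of the 8 genes was −0.75 and that of all genes 0.01. With the mouse number as a block, with the libraries labelled Smad4 off of both days pooled, or in 1 fit of all 12 groups, 0 of the 8 were called. The block kept 2 pairs of libraries that share a mouse number, which left little to estimate the spread from. Shares of all genes called in these settings are not given here, so the 0 cannot be set against them. Leaving out 1 library gave 1 to 3, where 0.0133 to 0.366% of all genes fell.

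In the pancreas on day 14, *Tubb3* and *Tubb6*, again 2 of the 8 genes, fell, compared with 1.26% of 14234 genes. The log2 fold change of *Tubb3* was −1.10 ± 0.14 (adjusted P = 0.00261). That of *Tubb6*, at 265 and 220 against 134, 118 and 127 CPM, was −1.03 ± 0.11 (adjusted P = 0.00139). The *Tubb3* difference was smaller on day 14 than on day 7 as a value, but the difference between the days was not tested.

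In all, 6 of the 8 genes had an adjusted P value under 0.05 in the pancreas on day 14, compared with 6.3% of all genes that were lower at any fold. The 4 under 2-fold were *Tuba1a* (log2 fold change −0.94 ± 0.13), *Tubb2b* (−0.74 ± 0.10), *Tubb5* (−0.59 ± 0.09) and *Tubb2a* (−0.41 ± 0.10). *Tuba1a* was at 447 and 346 CPM against 201, 222 and 240 CPM, and *Tubb5*, the main β isotype, at 1543 and 1394 against 1073, 1041 and 1014 CPM. *Tuba1b* (−0.35 ± 0.11) and *Tuba1c* (−0.04 ± 0.11) did not pass. The labels did not overlap for 7 genes, all but *Tuba1c*, compared with 15.2% of all genes. The median of the 8 genes was −0.67. In 1 fit of all 12 groups 0 of the 8 were called, a setting whose share of all genes is not given here. Leaving out 1 library gave 1 to 3, where 0.439 to 1.72% of all genes fell.

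In the liver on day 7, *Tuba1a* alone passed the test, compared with 0.262% of 16007 genes that fell. *Tuba1a* was at 341 and 615 CPM in libraries labelled Smad4 off and at 66.3, 51.6 and 53.5 CPM in those labelled Smad4 on, a log2 fold change of −3.26 ± 0.36 (adjusted P = 0.0477). *Tubb3* had the larger difference, −5.00 ± 0.76, but an adjusted P of 0.0563.

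A further 3 β-tubulin genes of the liver on day 7 also missed the threshold. *Tubb6*, at 241 and 195 against 106, 98.9 and 77.8 CPM, had a log2 fold change of −1.37 ± 0.18 (adjusted P = 0.0562). *Tubb2b*, at 196 and 189 against 88.8, 65.7 and 48.4 CPM, had one of −1.68 ± 0.27 (adjusted P = 0.0578), and *Tubb5*, at 1606 and 1237 against 711, 641 and 531 CPM, one of −1.33 ± 0.23 (adjusted P = 0.0601). These 3 genes, *Tubb3* and *Tuba1a* were the 5 whose labels did not overlap, compared with 15.9% of all genes. *Tuba1b*, at 123 and 485 against 53.5, 51.8 and 246 CPM, was high in 1 library of each label, both with *mt-Co3* counts, and did not pass (−1.57 ± 0.98), and neither did *Tubb2a* (−0.45 ± 0.34) or *Tuba1c* (−0.26 ± 0.34). Without the paired-end library these 3 had log2 fold changes of −0.11, 0.19 and −0.10.

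The count of genes that fell in the liver on day 7 depended on the library set and the test. Without the paired-end library it was 4, compared with 1.85% of all genes, each set against a single library labelled Smad4 off, which is assumed to vary like the 3 labelled Smad4 on. The log2 fold change was then −4.25 for *Tubb3* (adjusted P = 0.0440), −2.64 for *Tuba1a* (adjusted P = 0.0261), −1.42 for *Tubb6* (adjusted P = 0.0330) and −1.42 for *Tubb5* (adjusted P = 0.0449), and that of *Tubb2b* was −1.60 (adjusted P = 0.0555). With DESeq2 the count was 5, compared with 7.62% of all genes. It was 6 without both libraries with *mt-Co3* counts, compared with 7.05% of all genes, with *Tuba1b* (−1.30) among them. That fit holds 1 library labelled Smad4 off and 2 labelled Smad4 on, so its spread comes from the latter pair. It was 0 with the mouse number as a block, with libraries labelled Smad4 off of both days pooled, and without any 1 of the 3 libraries labelled Smad4 on. In every one of these settings the log2 fold changes of *Tubb3*, *Tuba1a*, *Tubb6*, *Tubb2b* and *Tubb5* were negative. The block kept only 2 pairs of libraries that share a mouse number, which left little to estimate the spread from. Shares of all genes called in the block and pooled fits are not given here, so their 0 cannot be set against them.

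In the liver on day 14 none of the 8 genes was called by edgeR, where 0% of 14947 genes fell. *Tuba1a*, at 218, 240 and 287 against 57.2, 77.2 and 146 CPM, had a log2 fold change of −1.46 ± 0.36 (adjusted P = 0.357). *Tubb6* (254, 198 and 173 against 108, 126 and 78.3 CPM) had one of −1.09 ± 0.26 and *Tubb2b* (164, 137 and 125 against 66.2, 87.6 and 67.9 CPM) one of −1.02 ± 0.21. These 3 and *Tubb5* (1636, 1285 and 1106 against 681, 1007 and 776 CPM) did not overlap between labels, 4 of 8 compared with 5.82% of all genes. At an unadjusted P under 0.05, 4 of the 8 were lower and 0 higher, compared with 5.07% of all genes that were lower. DESeq2 called 3, *Tuba1a*, *Tubb6* and *Tubb2b*, compared with 1.31% of all genes that fell by that test. *Tubb3*, which overlapped, had a log2 fold change of −1.33 ± 0.82 (adjusted P = 0.665).

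In the lungs none of the 8 genes was called on either day, compared with 0% of 15193 genes that fell on day 7 and 0.00678% of 14751 on day 14. At an unadjusted P under 0.05 the number was also 0 on both days (5.22% and 10.1% of all genes), and DESeq2 called 0. The labels overlapped for all 8 genes on both days, where 7.31% and 2.26% of all genes were lower without overlap. On day 7 log2 fold changes ran from −0.08 ± 0.33 (*Tubb3*) to 0.89 ± 1.18 (*Tuba1b*), with 7 of 8 above 0 and a median of 0.25. *Tuba1a* was at 199, 197, 150 and 309 CPM in libraries labelled Smad4 off and at 150 and 297 CPM in those labelled Smad4 on, and *Tubb5* at 996, 948, 966 and 1264 against 888 and 1132 CPM. The higher value under each label came from a library with *mt-Co3* counts.

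On day 14 in the lungs 7 of the 8 genes had a log2 fold change under 0, with a median of −0.43. That of *Tubb3* was −1.30 ± 0.57 (adjusted P = 0.498), and −0.48 without the highest library, mouse 4 labelled Smad4 off. *Tubb6*, at 179, 177, 313 and 178 against 110, 137, 149 and 188 CPM, had one of −0.60 ± 0.27, and *Tuba1a*, at 198, 212, 441 and 408 against 147, 130, 167 and 396 CPM, one of −0.65 ± 0.46. These differences did not pass the threshold against the spread between these libraries.

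**Figure D3:**
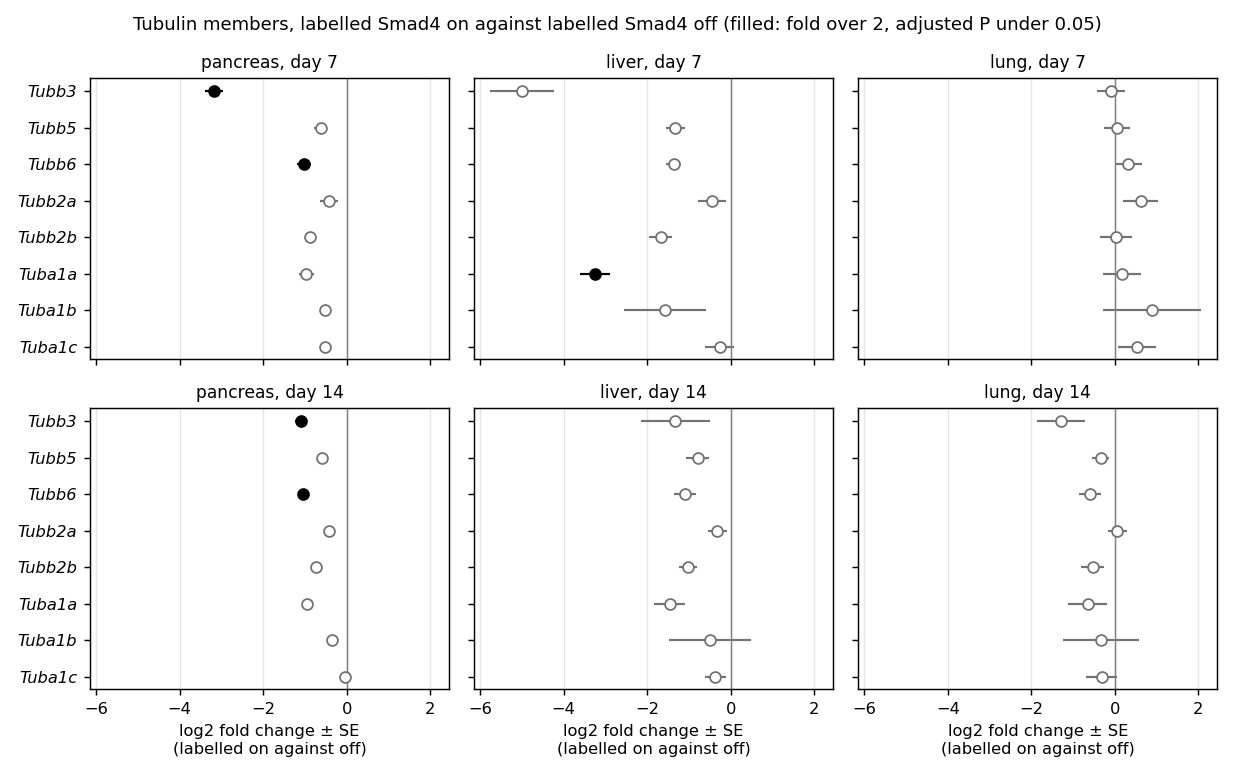
Log2 fold change of each of the 8 genes, libraries labelled Smad4 on against Smad4 off, in 6 panels by organ and day. Bars show the SE derived from edgeR's F statistic, and filled symbols mark genes that changed over 2-fold at an adjusted P value under 0.05. Values lie under 0 for all 8 genes in the pancreas and the liver on both days, and 5 points are filled: *Tubb3* and *Tubb6* in the pancreas on each day, and *Tuba1a* in the liver on day 7.

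Whether liver and lungs differed was tested on the fold changes themselves, with an interaction term in edgeR. On day 7 the response of 5 of the 8 genes differed, all 5 lower in the liver, compared with 3.61% of 16513 genes that differed in this direction. The difference of log2 fold changes, liver minus lungs, was −4.87 ± 0.68 for *Tubb3* (adjusted P = 0.00759) and −3.38 ± 0.55 for *Tuba1a* (adjusted P = 0.00781). It was −1.63 ± 0.36 for *Tubb6* (adjusted P = 0.0196), −1.33 ± 0.32 for *Tubb5* (adjusted P = 0.0251) and −1.65 ± 0.41 for *Tubb2b* (adjusted P = 0.0288). *Tuba1b* (−2.41 ± 1.49), *Tubb2a* (−1.02 ± 0.54) and *Tuba1c* (−0.73 ± 0.55) did not pass.

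Leaving out 1 library at a time gave 2 to 5 genes, where 0.917 to 7.45% of all genes were called in this direction. It gave 2 without the library labelled Smad4 on of mouse 2 in the lungs, 3 without that of mouse 2 or of mouse 3 in the liver, and 4 without the paired-end library (1.44% of all genes), where the difference for *Tubb3* was −4.14 (adjusted P = 0.0230) and *Tubb2b* did not pass (−1.59, adjusted P = 0.0797). Without all libraries with *mt-Co3* counts the number was again 5 (1.86% of all genes), but *Tubb6* was not called and *Tuba1b* was (−1.54, adjusted P = 0.00599). *Tuba1b* was also called with a term for *mt-Co3* counts (−1.47, adjusted P = 0.00804). The number was 0 when mouse numbers were blocked by organ. That fit kept only mouse numbers shared by the labels, 2 pairs per organ, and its share of all genes is not given here. On day 14 none of the 8 differed between liver and lungs (adjusted P = 1.00 for each), where 0% of 16907 genes differed. At an unadjusted P under 0.05 the number was also 0, with 4.54% of all genes, and DESeq2 called 0.

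The differences with the pancreas were not called for any of the 8 genes. On day 7 the response of *Tubb3* in the lungs lay 3.10 ± 0.70 above that in the pancreas (adjusted P = 0.466), where 0% of 16513 genes were called, and the difference of liver minus pancreas was −1.77 ± 0.70 (adjusted P = 0.191), where 1.62% of genes were called. For *Tuba1a* the difference of liver minus pancreas was −2.25 ± 0.57 (adjusted P = 0.0628). Without the paired-end library the differences of liver minus pancreas were −1.05 for *Tubb3* (adjusted P = 0.585) and −1.65 for *Tuba1a* (adjusted P = 0.263). At an unadjusted P under 0.05, 2 of the 8 genes were higher for lungs minus pancreas (8.01% of all genes differed) and 2 lower for liver minus pancreas (18.8%). On day 14 both differences had adjusted P = 1.00 for each of the 8 genes, with 0% of 16907 genes called for liver minus pancreas and 0.00591% for lungs minus pancreas. At an unadjusted P under 0.05 the number was 0 for both, with 4.79% and 4.6% of all genes, and DESeq2 called 0. These interactions share libraries with each other and with the comparison of liver and lungs. That of lungs minus pancreas on day 7 was called for *Tubb3* without the libraries with *mt-Co3* counts (3.31, adjusted P = 0.0364, with 0.327% of all genes) and with DESeq2 (adjusted P = 0.00974, with 0.315%). DESeq2 also called *Tuba1a* for liver minus pancreas, with 7.78% of all genes.

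In libraries labelled Smad4 off alone, averaged over both days, the organs did not differ over 2-fold in any of the 8 genes at an adjusted P value under 0.05, although 8.53% of 16606 genes did between liver and pancreas, 18.3% between lungs and pancreas and 4.33% between liver and lungs. At an unadjusted P under 0.05, 2, 3 and 1 of the 8 genes differed, compared with 30.7%, 44.7% and 22.4% of all genes, and DESeq2 called 0 in each. *Tuba1a* (−0.84 ± 0.27, adjusted P = 0.0263) and *Tubb6* (−0.61 ± 0.20, adjusted P = 0.0301) were lower in the lungs than in the pancreas by less than 2-fold, as 2 of 8 compared with 17.9% of all genes at any fold. For *Tubb3* the difference was −1.15 ± 0.54 between liver and pancreas (adjusted P = 0.158) and −0.58 ± 0.46 between lungs and pancreas (adjusted P = 0.353). Without the paired-end library the first of these was −1.49 (adjusted P = 0.108). With a term for *mt-Co3* counts they became −2.06 (adjusted P = 0.00214) and −1.30 (adjusted P = 0.00229), and *Tuba1a* was lower in the lungs than in the pancreas (−1.28, adjusted P = 8.04e-05), where 9.65% and 19.5% of all genes were called.

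The average over the days held unlike values for *Tubb3*. Between lungs and pancreas the difference was −1.67 (adjusted P = 0.0189) on day 7 alone and 0.61 (adjusted P = 0.682) on day 14 alone. On day 7 alone *Tuba1a* was called as well (−1.19, adjusted P = 0.0479), 2 of 8 compared with 10.9% of all genes. Between liver and lungs the difference for *Tubb3* was 1.31 (adjusted P = 0.138) on day 7 and −2.46 (adjusted P = 0.181) on day 14, against −0.57 for the average.

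Levels of the α-tubulin genes, above all *Tuba1b*, differed with the presence of *mt-Co3* counts. *Tuba1b* stood at 246 to 519 CPM (median 487) in the 10 libraries with *mt-Co3* counts and at 51.8 to 123 CPM (median 68.7) in the other 15 of liver and lungs, without overlap. The ratio of medians was 7.09 for *Tuba1b*, 2.02 for *Tuba1a* and 1.68 for *Tuba1c*, and 1.23 (*Tubb5*) to 1.55 (*Tubb3*) for the β-tubulin genes. The 3 α-tubulin genes took 34.1 to 40.2% of the counts of the 8 genes in these 10 libraries and 16.0 to 25.9% in the other 25. What the libraries with *mt-Co3* counts have in common was not tested, and both labels hold such libraries in the liver and lungs on both days.

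**Figure D4:**
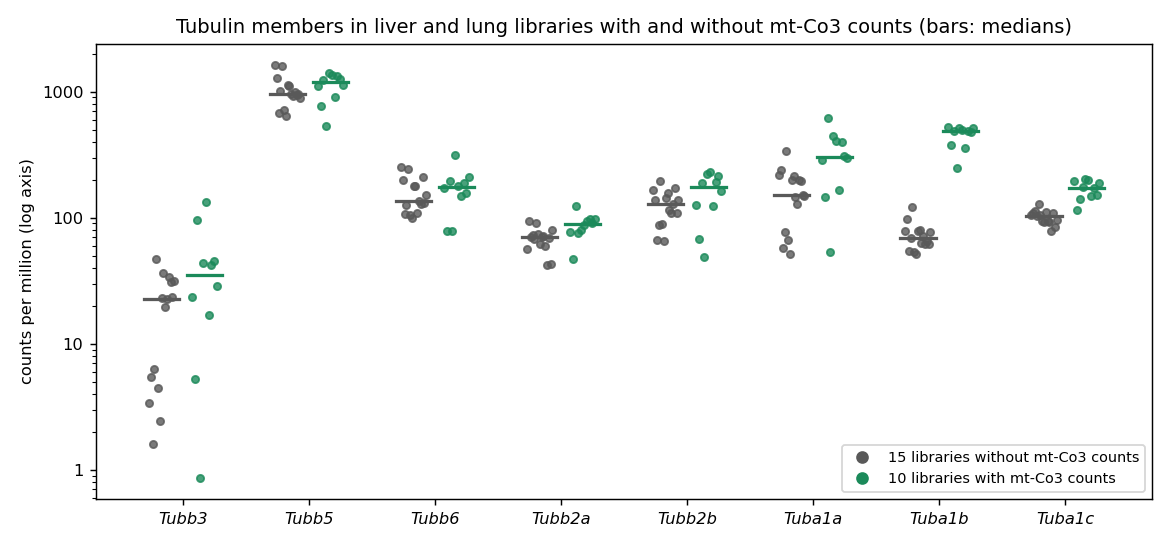
CPM (log axis) of each of the 8 genes in the 15 liver and lung libraries without *mt-Co3* counts (grey) and the 10 with them (green), with bars for medians. *Tuba1b* is separated, at 51.8 to 123 against 246 to 519 CPM, whereas the sets overlap for the other 7 genes.

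The difference between labels was also computed within each set of libraries. Within the 8 pairs of an organ, day and *mt-Co3* status in liver and lungs, mean log2 CPM was lower in libraries labelled Smad4 on in 8 of 8 for *Tuba1a* and for *Tubb5*, and in 7 of 8 for *Tubb3*, *Tubb2b* and *Tubb6*. It was lower in 6 of 8 for *Tuba1b* and in 4 of 8 for *Tubb2a* and *Tuba1c*. Each set held 1 to 3 libraries of a label, so these are values with no test. For *Tubb3* they ran from −6.15 and −3.65 in the liver on day 7, with *mt-Co3* counts (where the paired-end library is the one labelled Smad4 off) and without them, to 0.10 in the lungs on day 7 without them.

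Genes that act on tubulin were described from lists. Of 12 other tubulin genes, 7 to 9 were tested per comparison and none was called in any of the 6, and *Tubb4b*, a widespread β-tubulin, had log2 fold changes of −0.57 in the pancreas and 0.04 in the liver on day 7. None of 21 genes of tubulin folding and autoregulation was called in any comparison, with medians of −0.38 (liver, day 7) to 0.09 (lungs, day 7). Of 25 tubulin-modifying enzymes 1 was called, *Ttll10*, a polyglycylase, higher in the pancreas on day 14 (1.64, adjusted P = 0.0334). Of 40 microtubule-binding genes 2 were called, both there: *Map2*, a neuronal microtubule-associated protein, lower (−1.12, adjusted P = 0.00383) and *Camsap3*, which binds minus ends, higher (1.03, adjusted P = 0.0182). In the liver on day 7 without the paired-end library, values stand against a single library labelled Smad4 off. Of 21 modifying enzymes tested there, 13 were lower and 8 higher (median −0.39). Of 35 microtubule-binding genes, 22 were lower and 13 higher (median −0.27). Among those that changed over 2-fold, *Ttll5*, a polyglutamylase, was lower (−1.37). *Ttll10* (3.02), *Map7*, a cofactor of kinesin (1.77), *Mapre2* (1.05), *Camsap3* (1.90), *Tppp* (2.81) and *Mtus1* (2.55) were higher. Among the 7 genes next to *Tubb3* on chromosome 8, 6 were tested and none was called in any comparison.

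Proliferation genes were also lower in several of these comparisons. All 15 were lower in libraries labelled Smad4 on of the pancreas on day 7 (median −0.89), the liver on day 7 (−0.84, and −1.17 without the paired-end library) and the liver on day 14 (−0.77), and 9, 12 and 10 of 15 in the lungs on day 7 and the pancreas and lungs on day 14 (−0.05, −0.18 and 0.00). In the pancreas on day 7, 3 of the 15 fell: *Top2a*, a DNA topoisomerase (−1.04), *Ccna2*, a cyclin (−1.03), and *Bub1*, a spindle checkpoint kinase (−1.26). Their part in the tubulin differences was not tested.

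Because *Tubb3* marks neurons, neuronal genes were examined in all libraries. The defining genes *Rbfox3*, *Elavl3*, *Elavl4*, *Dcx* and *Chat* had medians of 0 CPM, with highest values of 0.574, 0.421, 0.195, 0.223 and 0.107 CPM. In all, 8 of 16 neuronal genes had at most 3 counts in most of the libraries. *Stmn2* (0.251 to 220 CPM), *Prph* (0.370 to 162) and *Uchl1* (0.995 to 32.4) were present in all 35. The 16 genes summed to 53.2 to 270.2 CPM in the pancreas, 6.00 to 173 in the liver and 10.2 to 48.6 in the lungs. By label, the sum did not overlap in the liver, where it was 30.9 to 39.2 CPM (off) and 6.52 to 7.21 CPM (on) on day 7 and 34.1 to 173 CPM (off) and 6.00 to 9.45 CPM (on) on day 14. The same held for the pancreas on day 14, at 136 to 173 CPM (off) and 53.2 to 101.7 CPM (on), but not on day 7, at 70.9 to 270.2 CPM (off) and 85.0 to 140.1 CPM (on). In the lungs the labels overlapped on both days, at 19.0 to 48.6 CPM (off) and 10.2 to 43.3 CPM (on) over the pair of days. The part of these genes in the *Tubb3* differences was not tested. With the paired-end library included, none of the 4 to 7 neuronal genes tested per comparison was called. In the liver on day 7 without the paired-end library 8 were tested, 4 lower and 4 higher, with a median log2 fold change of 0.20. The largest fall was that of *Uchl1* (−4.34), beside −4.25 for *Tubb3* in the same fit. The largest rise was that of *Th* (7.18), and all these values stand against a single library labelled Smad4 off.

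The sum of Schwann cell genes ran the other way in the liver on day 7 and the pancreas on day 14. *Sox10*, which defines these cells, had at most 3 counts in all 35 libraries. The 6 genes summed to 23.0 to 47.6 CPM (off) and 129 to 159 CPM (on) in the liver on day 7 and to 28.4 to 37.3 CPM (off) and 49.9 to 56.7 CPM (on) in the pancreas on day 14, without overlap, and the labels overlapped in the other 4 comparisons. None was called, but *Mbp*, a myelin protein, was higher in the liver on day 7 without the paired-end library (1.63, adjusted P = 0.0287). The 8 neuroendocrine genes summed to at most 26.8 CPM, included no called gene, and did not overlap in the liver on day 7 alone, at 1.79 to 1.97 CPM (off) and 5.56 to 26.8 CPM (on). The part of these genes in the tubulin differences was not tested.

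Markers of other cells that a sort could carry along differed between labels in the pancreas. On day 7, 3 of 10 fibroblast genes were higher in libraries labelled Smad4 on (*Fbln1* 2.32, *Col3a1* 1.15 and *Pdgfra* 2.93) and 2 of 7 acinar genes lower (*Prss2* −1.86 and *Ctrb1* −1.83). On day 14, *Col1a2* (1.58) and *Fbln1* (1.39) among fibroblast genes and *Ttr* (2.38) among 8 hepatocyte genes were higher. In the liver on day 7, where the paired-end library is 1 of 2 labelled Smad4 off, all 10 fibroblast genes were lower (median −3.51) and all 8 carcinoma genes higher (median 1.54), with none called. Without that library the fibroblast direction was the opposite, with 9 of 10 higher (median 1.98) and *Pdgfrb* called (2.20), and 7 of 8 carcinoma genes were higher (median 0.81) with *Epcam* called (1.48). Their sums there were 469 CPM in the other library labelled Smad4 off against 463 to 1530 CPM for fibroblast genes, and 12554 against 17091 to 18475 CPM for carcinoma genes.

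Summed levels of immune and hepatocyte genes were also higher in libraries labelled Smad4 on in several comparisons. The 8 immune genes summed to 60.5 to 131 CPM (off) and 253 to 277 CPM (on) in the liver on day 7, to 134 to 218 and 248 to 520 CPM there on day 14, to 163 to 260 and 294 to 322 CPM in the pancreas on day 14, and to 214 to 373 and 390 to 776 CPM in the lungs on day 14, without overlap in these 4. The labels overlapped in the pancreas (133 to 207 and 160 to 201 CPM) and lungs (315 to 597 and 177 to 486 CPM) on day 7. The 8 hepatocyte genes summed to 8.47 to 33.2 CPM (off) and 69.8 to 137 CPM (on) in the liver on day 7. They did not overlap in the pancreas either, at 6.59 to 13.0 and 15.7 to 28.4 CPM on day 7 and 19.6 to 27.9 and 30.7 to 77.7 CPM on day 14, and overlapped in both lung comparisons and in the day 14 livers. No gene of the 8 immune, 6 endothelial or 6 lung epithelial genes was called in any comparison, with or without the paired-end library. The part of these cells in the tubulin results was not tested.

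Genes with a profile like that of *Tubb3* were sought by the Pearson correlation of mean log2 CPM over the 12 groups, across 17547 genes, as a description without a test. The 5 closest were *Ripor1* (r = 0.97), *Lmf2* (0.97), *Esyt1*, a lipid-transfer protein of membrane contacts (0.97), *Tmem109* (0.96) and *Arhgdia* (0.95), with r of 0.81, 0.91, 0.87, 0.86 and 0.83 over the 35 libraries. In all, 56 genes had an r over 0.9 over groups. Among the tubulins *Tubb2b* was closest (0.93), followed by *Tuba1a* (0.88), *Tubb6* (0.82) and *Tubb5* (0.79), whereas *Tuba1b* (0.39), *Tubb2a* (0.22) and *Tuba1c* (−0.03) were far. The 12 groups share organs, days and labels, and libraries with *mt-Co3* counts enter the group means.

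The promoters of the genes with the largest differences, *Tubb3* and *Tuba1a*, are shown because SMAD proteins bind the letters CAGAC, read on either strand. The sequences are from RefSeq on GRCm38.p6, 5′ to 3′ on the strand of the gene, trimmed to the bases before the gene's deposited start, and capitals mark CAGAC or its complement GTCTG.
Tubb3, chr8:123411303-123411423, plus strand: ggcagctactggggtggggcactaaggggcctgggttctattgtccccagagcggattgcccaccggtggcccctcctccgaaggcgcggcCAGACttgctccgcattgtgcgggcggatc
Tuba1a, chr15:98953552-98953751, minus strand: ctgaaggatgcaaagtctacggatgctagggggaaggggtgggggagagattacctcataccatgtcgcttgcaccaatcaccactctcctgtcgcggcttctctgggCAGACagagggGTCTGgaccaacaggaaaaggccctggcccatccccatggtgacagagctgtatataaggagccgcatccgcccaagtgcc
Over the 250 bases before the RefSeq start, *Tubb3* held 1 such match and *Tuba1a* 2, *Tuba1b* held 1 and *Tubb2a*, *Tubb5* and *Tuba1c* held 0. Promoters were matched for 6 of the 8 genes, and 42.2% of all 32851 promoters of the same length hold the letters. TGTGGT or its complement ACCACA, bound by RUNX factors, was in none of the 6 (14.0% of all promoters), and CACCC or GGGTG, bound by KLF factors, was in 5, all but *Tuba1b* (52.0% of all). A match is a description of letters and not a binding site.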

How the data were processed

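Bulk RNA-seq was analysed for 35 libraries of FACS-sorted mKate2+ tumor cells, 18 labelled Smad4 off and 17 labelled Smad4 on. The authors deposited raw counts per gene, whole numbers for 53465 genes without normalization, made from poly(A)-selected, stranded libraries read as 75-bp single ends, apart from 1 paired-end library. The submitters' processing notes name FastQC 0.11.5, Trimmomatic 0.36, STAR 2.5.3a, featureCounts 1.6.3 and GRCm38. The strand setting and the handling of reads with several matches are not given in the sources used here. All columns matched a label (0 unmatched), and 0 pairs of libraries were identical.

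CPM are counts scaled to the library total and RPKM divide CPM by the deposited transcript length. Each organ and day was fitted alone in R 4.3.3 with the robust quasi-likelihood test of edgeR 4.0.16, after TMM scaling and a low-count filter (filterByExpr, with at least 10 counts and 15 in total). Calls required a change over 2-fold and an adjusted P value (Benjamini–Hochberg, all genes) under 0.05. The SE beside an edgeR value was derived from the test. It is the absolute log2 fold change divided by the square root of the F statistic. Differences between organs were interactions of organ and label within a day, and organ differences in libraries labelled Smad4 off were averaged over both days. The study's own tool, DESeq2 (1.42.0 here), was an alternative, as were other scaling and filters, a block for the mouse number, 1 fit of all groups, pooled libraries labelled off, a term for *mt-Co3* counts and leaving out libraries. Leaving out all libraries with *mt-Co3* counts, that term in the fits across organs, and the gene lists without the paired-end library were added after seeing the data. Scripts were tested on simulated data. Python 3.11.15 and matplotlib 3.10.9 drew the figures.

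The 8 genes and the gene lists (other tubulins, folding, modifying and microtubule-binding genes, proliferation, cell-type markers and the neighbors of *Tubb3*) were chosen with earlier results of these data known. All 8 genes are named, as are called list genes, and the 5 genes closest to *Tubb3* by correlation over group means of log2 CPM (pseudocount 0.5). In the lungs on day 14 libraries that share a mouse number correlated over 0.1 in every pair, and the block left 0 of the 8 called there. Mice 1 and 2 there lacked *mt-Co3* counts under both labels and mice 3 and 4 held them. Libraries of the same number thus also shared that status. In 3 of the 4 pairs a library of another number correlated more highly, at 0.538, 0.610 and 0.568 against 0.384, 0.456 and 0.555. In each comparison the block kept only libraries whose mouse number occurred under both labels. P values measure the spread between these libraries, since the labels do not say that each is a separate animal. Part of the genotype of the injected cells is not reported here.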

Additional observations from a re-analysis of the deposited data

Results flagged for a closer look

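The response to the label differed between liver and lungs on day 7 for 5 of the 8 genes by the interaction in edgeR's quasi-likelihood test. The difference of log2 fold changes, liver minus lungs, was −4.87 for *Tubb3* (adjusted P = 0.00759), −3.38 for *Tuba1a* (0.00781), −1.63 for *Tubb6* (0.0196), −1.33 for *Tubb5* (0.0251) and −1.65 for *Tubb2b* (0.0288). Both lung libraries labelled Smad4 on lay within or near the range of those labelled Smad4 off, whereas the 3 liver libraries labelled Smad4 on lay under both labelled Smad4 off for all 5 genes. One of these 2, of mouse 2, was the paired-end library with high acinar and fibroblast genes, and without it the difference for *Tubb3* was −4.14 (adjusted P = 0.0230).

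In the groups of 4 libraries, which are those of the lungs, 1 library lay far from the other 3 in 4 of 24 tests, where chance gives about 1 in 20. On day 7 among libraries labelled Smad4 off, mouse 4 had 480 CPM of *Tuba1b* (next highest 65.5) and 1264 CPM of *Tubb5* (next highest 996). On day 14, mouse 3 labelled Smad4 off had 313 CPM of *Tubb6* (next highest 179), and mouse 4 labelled Smad4 on had 1319 CPM of *Tubb5* (next highest 950). All 3 of these libraries held *mt-Co3* counts, and the part of what these libraries share was not tested.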

How the results depend on the processing

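In the pancreas on day 7 the count of 2 called genes became 0 with the mouse number as a block, with pooled libraries labelled off and in 1 fit of 12 groups (leaving out 1 library, 1 to 3). On day 14 the count of 2 became 6 with no fold threshold and 0 in the fit of 12 groups (1 to 3). The block gave 3 in the pancreas on day 14 and 0 in the liver on both days and in the lungs. Shares of all genes called are not given here for the block, pooled and 12-group fits that gave 0. In the liver on day 7 the count of 1 became 5 with DESeq2, with a term for *mt-Co3* counts or in the fit of 12 groups, 4 without the low-count filter, with at least 10 counts in every library or without the paired-end library, 6 without libraries with *mt-Co3* counts and 0 with the block or pooled libraries (0 to 5). In the settings that gave 4 to 6, 1.42 to 7.93% of all genes fell. On day 14 there the count of 0 became 3 with DESeq2 and 1 in the fit of 12 groups. The interaction count of liver and lungs on day 7 became 0 with the block (2 to 5). The other interaction counts on day 7 became 1 for liver minus pancreas in the fit of 12 groups, with DESeq2, with the *mt-Co3* term and without *mt-Co3* libraries (0 to 2), and 1 for lungs minus pancreas with DESeq2 and without *mt-Co3* libraries. Organ counts became 1 for liver minus pancreas (0 to 1) and 2 for lungs minus pancreas with the *mt-Co3* term or without those libraries, and 2 for the latter on day 7 alone. The cause of these changes was not tested.

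Some differences near 0 changed sign. With the block, *Tubb3* in the lungs on day 7 became 0.041 and *Tuba1c* in the pancreas on day 14 became 0.024. In the lungs on day 7, *Tubb2b* became −0.16, *Tubb5* −0.13 and *Tuba1a* −0.19 with pooled libraries, −0.12, −0.10 and −0.16 with the *mt-Co3* term, and *Tubb3* 0.11, *Tubb5* −0.10, *Tubb6* −0.0259 and *Tuba1a* −0.25 without *mt-Co3* libraries. *Tubb2a* became 0.19 without the paired-end library and 0.22 without *mt-Co3* libraries in the liver on day 7, and −0.025 without them in the lungs on day 14, where *Tuba1b* became 0.0345 with pooled libraries. The organ difference of *Tubb3* became 0.61 for lungs minus pancreas on day 14 alone and 1.31 for liver minus lungs on day 7 alone. Per kilobase, median shares became 5.00% for *Tubb2a*, 41.7% for *Tubb5*, 11.99% for *Tubb6* and 16.2% for *Tuba1a*.

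Leaving out 1 library gave, in the lungs on day 7, −0.25 to 0.20 for *Tubb3*, −0.24 to 0.31 for *Tubb2b*, −0.28 to 0.32 for *Tubb5*, −0.083 to 0.63 for *Tubb6*, −0.58 to 0.65 for *Tuba1a*, −1.26 to 2.50 for *Tuba1b* and −0.21 to 1.01 for *Tuba1c*. It gave −0.063 to 0.21 for *Tubb2a* and −0.92 to 0.13 for *Tuba1b* in the lungs on day 14, −0.85 to 0.19 for *Tubb2a* in the liver on day 7, −1.96 to 0.85 for *Tuba1b* there on day 14, and −0.13 to 0.041 for *Tuba1c* in the pancreas on day 14. For *Tuba1c*, liver minus lungs on day 7 ran from −1.20 to 0.0057. The lowest library held 24 counts of *Tubb3*, above the floor of 3.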
